A study of Mus musculus with 9 samples.

Results

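The genes described here encode the β-catenin destruction complex and its immediate partners. They are the 10 genes Apc, Axin1, Amer1, Gsk3a, Gsk3b, Csnk1a1, Btrc, Tnks, Ctnnb1 and Tcf7l2, taken by symbol from a table of 54146 genes. No measured value entered the rule, but earlier results of these data were known when the genes were chosen. All 10 were present in the table and all 10 passed the filter on low values that left 14410 genes for testing. RNA was measured by RNA-seq in the colonic mucosa of C57BL/6J mice at 15 wk of age, and the study's methods name colonic crypts as the source of the RNA. A figure legend of the study calls this mucosa normal-appearing. The control group was 5 ApcMin/+ mice (2 females and 3 males), which carry a heterozygous germline truncating mutation of Apc. The comparison group was 4 ApcMin/+; p16cis/cis mice (3 females and 1 male), which carry the same Apc mutation and are homozygous for an engineered allele in which an inserted cis-element brings DNA methylation to the p16 promoter. Both groups therefore share the Apc mutation, and no mouse with 2 normal Apc alleles was analyzed here. Each mouse gave 1 library. The value used throughout, the normalized count, is the number of reads on a gene divided by a size factor of the mouse.

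In cells without a Wnt signal, Apc and Axin1 hold β-catenin (Ctnnb1) next to the kinases casein kinase 1α (Csnk1a1) and GSK3 (Gsk3a and Gsk3b). The phosphorylated protein is recognized by the ubiquitin ligase subunit β-TrCP (Btrc) and degraded, whereas a Wnt signal stops this and lets β-catenin act with TCF factors such as Tcf7l2 on target genes. In the colonic crypt this pathway maintains the stem cells, and loss of APC is a common early event of colorectal tumors. Much of this control acts on the protein, and only RNA levels were measured here.

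Libraries held between 13523500 and 17885918 reads on genes, and those of the ApcMin/+; p16cis/cis mice were the shallowest, at no more than 14900228. The members had between 69 and 10940 reads in a mouse. Mitochondrial genes took 8.74% to 15.6% of the reads in ApcMin/+ mice and 19.3% to 29.8% in ApcMin/+; p16cis/cis mice, so that the genotypes were apart in this share too. All 12 markers of colonic epithelium were detected at levels that passed the filter, with summed normalized counts of 337817 to 563735 and of 323968 to 359962. The 6 smooth muscle markers summed to 41.9 to 357 and to 37.6 to 113, the 6 fibroblast markers to 88.4 to 545 and to 47.0 to 163, and the 5 endothelial markers to 143 to 312 and to 129 to 284. The 6 T cell markers summed to 61.0 to 801 and to 245 to 410, the 6 B and plasma cell markers to 35.6 to 927 and to 36.0 to 188, and the 6 myeloid markers to 118 to 213 and to 107 to 175. The 6 small-intestinal markers summed to 3033 to 6259 in ApcMin/+ mice and to 1058 to 1854 in ApcMin/+; p16cis/cis mice, without overlap. Cdkn2a, the gene of p16, was listed at 0 in all 9 mice, which allows a share of up to 2.22e-05% of the reads (3 reads in the shallowest library, counting error only), and the effect of the engineered allele on its own gene could not be checked at this depth. In RNA pooled from many cells, fewer cells of a type and less RNA per cell cannot be told apart.

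Among the 10 members, the largest difference between the genotypes was in Ctnnb1, the β-catenin gene, whose RNA was lower in all 4 ApcMin/+; p16cis/cis mice than in any of the ApcMin/+ mice. Csnk1a1, the priming kinase, was also lower without overlap. Axin1, a scaffold, was lower without overlap but just missed the threshold, and Gsk3a was the member with the largest positive difference and also missed it. Apc, Amer1, Gsk3b, Btrc, Tnks and Tcf7l2 had overlapping values. By limma with Benjamini-Hochberg adjustment over all 14410 genes, 2 of the 10 members passed in the lower direction, where 8.75% of all genes did, and 0 of 10 in the higher direction, where 8.14% of all genes did. At an unadjusted p under 0.05 these counts were 3 and 1, where 17.0% and 16.2% of all genes were counted. The edgeR and DESeq2 tests each gave 3 lower and 1 higher, where edgeR passed 9.05% and 8.08% of 14410 genes and DESeq2 10.1% and 8.89% of 17163 genes with an adjusted p. No member passed a fold change of 2 together with the adjusted p, as 3.48% of all genes did. Every ApcMin/+; p16cis/cis mouse lay below every ApcMin/+ mouse for 3 members, which was so for 8.95% of all genes, and above for 0 members, which was so for 7.24%. The median log2 fold change of the members was -0.18, against -0.00 over all genes tested, with 8 of the 10 members on the negative side in any size.

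**Figure D1:**
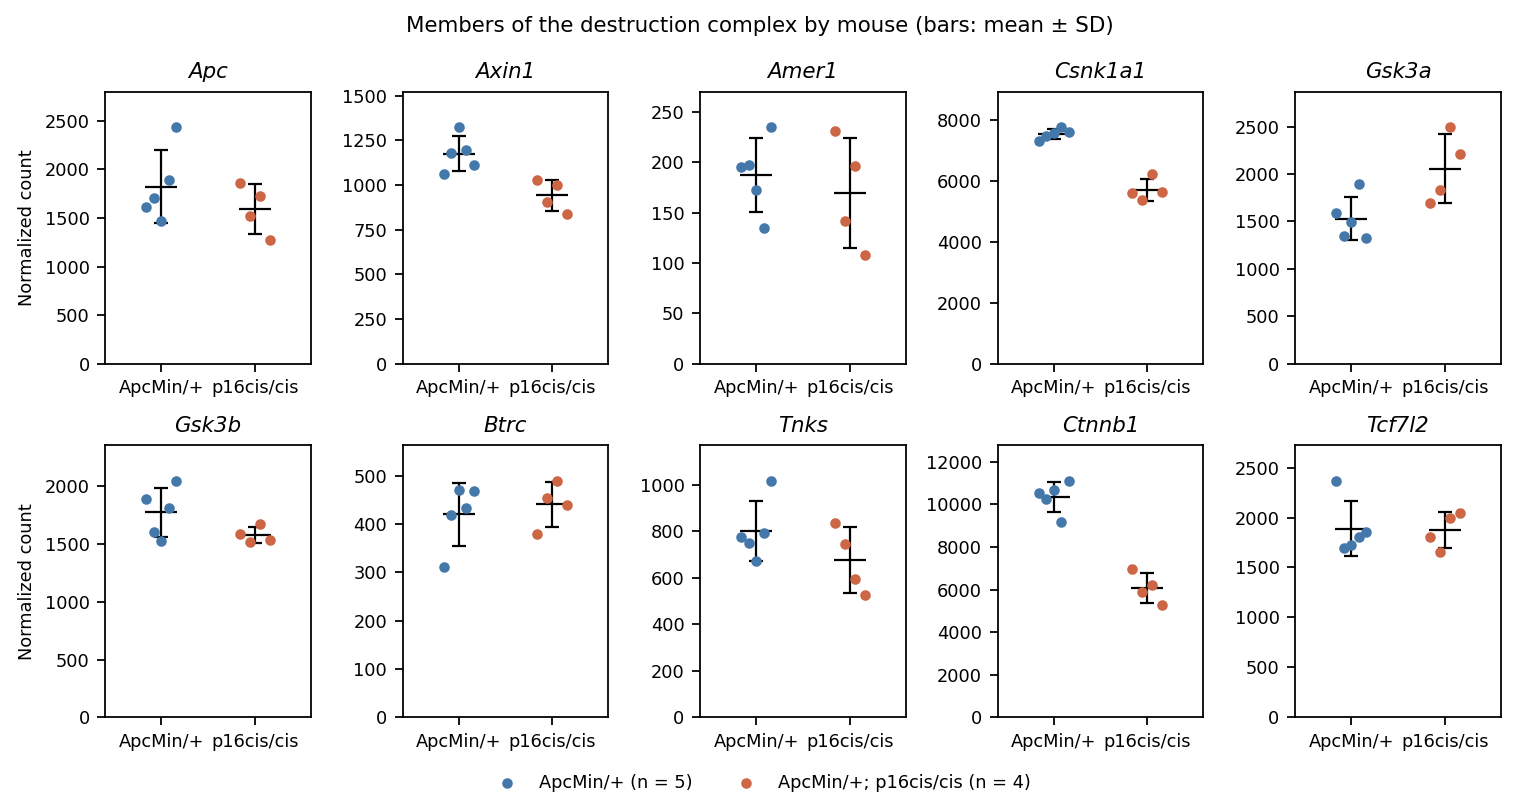
Normalized count (y axis, from 0) of each of the 10 members, with 1 point per mouse for 5 ApcMin/+ mice (blue) and 4 ApcMin/+; p16cis/cis mice (orange, labeled p16cis/cis), and bars for the mean ± SD. The point clouds were apart for Ctnnb1, Csnk1a1 and Axin1 and overlapped for the other 7 members.

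Ctnnb1 (ENSMUSG00000006932.17) lies on the plus strand of chromosome 9 (GRCm38, bases 120929216 to 120960507). Its normalized count was 10535, 10261, 10673, 9186 and 11112 in ApcMin/+ replicates 1 to 5, and 6974, 5886, 6232 and 5270 in ApcMin/+; p16cis/cis replicates 1 to 4. The highest mouse of the second genotype thus lay below the lowest of the first. The means were 10353 ± 721 (SD, n = 5) and 6090 ± 711 (SD, n = 4). This gave a log2 fold change of -0.77 (standard error 0.11, 95% interval -1.01 to -0.53, limma adjusted p = 0.00260), a change of -41.4% with an interval from -50.4% to -30.6%. Among the 14410 genes tested it ranked 84 by p-value. The exact permutation test over all splits of the mice gave p = 0.00794 (two-sided), the smallest value that 5 mice against 4 allow. In females alone the means were 10824 and 5796, and the only male of the second genotype had 6974 against a mean of 10040 in the 3 males of the first, so the difference lay in the same direction in both sexes.

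The Ctnnb1 call was made by each of the 3 tests used. The log2 fold change was -0.77 with the edgeR quasi-likelihood test (adjusted p = 0.00352), -0.76 with DESeq2 (adjusted p = 2.73e-09) and -0.76 after correction for GC content and exonic length (limma adjusted p = 0.00269). With each mouse left out in turn it was between -0.84 and -0.70. When the share of mitochondrial reads was added as a covariate it was -0.62 (limma adjusted p = 0.848), but genotype took 78.1% of the variance of that share, and 0 of 14410 genes passed in that fit. The summed small-intestinal markers were also lower in every ApcMin/+; p16cis/cis mouse. Of the 4 that could be tested, 3 (Sis, Apob and Alpi) passed in that direction, where 8.75% of all genes did. Lct was at no more than 6.27 in any mouse and Apoa1 at 0 in at least 1 mouse of each genotype. By limma 2 of 12 colonic epithelium markers, 1 of 6 B and plasma cell markers, 1 of 4 fibroblast markers and 1 of 4 myeloid markers passed lower too. In the higher direction 0 markers of any list passed by limma or edgeR, where 8.14% and 8.08% of all genes did. DESeq2 passed 1 colonic epithelium and 1 myeloid marker in that direction, where it passed 8.89% of all genes. In the lower direction DESeq2 passed 5 of 12 colonic epithelium and 4 of 6 B and plasma cell markers, where it passed 10.1% of all genes. The part of any of these cell types and of the mitochondrial share in the fall of Ctnnb1 was not tested. Ulk4, a kinase gene on the opposite strand, overlaps 14.6% of the exonic length of Ctnnb1, and its own normalized count was no more than 18.8 in any mouse.

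**Figure D2:**
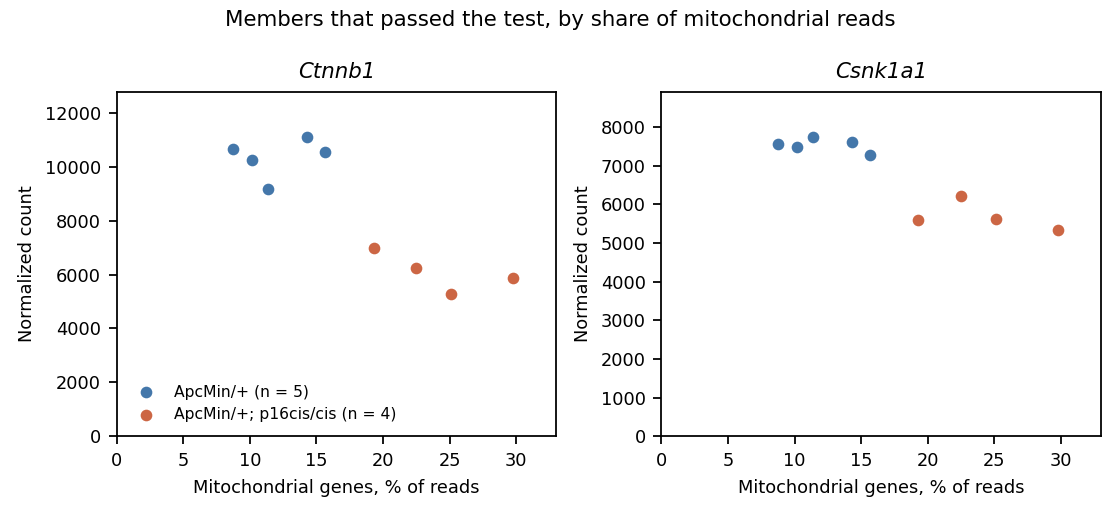
Normalized count (y axis, from 0) of Ctnnb1 (left) and Csnk1a1 (right) against the percentage of reads on mitochondrial genes (x axis), with 1 point per mouse. The genotypes were apart on both axes, at 8.74% to 15.6% for the ApcMin/+ mice (blue) and 19.3% to 29.8% for the ApcMin/+; p16cis/cis mice (orange).

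β-catenin also works at the cell membrane, where it links E-cadherin (Cdh1) to α-catenin (Ctnna1). Of the 6 junctional partners tested, 2 passed in the lower direction and 0 in the higher, by limma, edgeR and DESeq2 alike, with 3 and 0 at an unadjusted p under 0.05. Over all genes the shares were 8.75% and 8.14% by limma, 9.05% and 8.08% by edgeR, and 10.1% and 8.89% by DESeq2. At an unadjusted p under 0.05 they were 17.0% and 16.2%. Ctnna1 averaged 9154 ± 453 (SD, n = 5) in the first genotype and 6647 ± 684 (SD, n = 4) in the second (log2 fold change -0.47, standard error 0.10, limma adjusted p = 0.0124). Cdh17, an intestinal cadherin and also in the list of epithelial markers, went from 15924 ± 1142 to 11497 ± 2342 (log2 fold change -0.49, standard error 0.15, limma adjusted p = 0.0383), and this call was lost after the correction for GC content and length (limma adjusted p = 0.111). Cdh1 had 23096 ± 1673 and 23236 ± 2567, with a log2 fold change of 0.01 (limma adjusted p = 0.983). Ratios within each mouse, chosen after the values were seen and given with no test, do not depend on the scaling of the libraries. The ratio of Ctnnb1 to Cdh1 was 0.372 to 0.504 in ApcMin/+ mice and 0.248 to 0.280 in ApcMin/+; p16cis/cis mice, and that of Ctnna1 to Cdh1 was 0.385 to 0.422 and 0.247 to 0.316, both without overlap. The ratio of Ctnnb1 to Ctnna1 overlapped, at 0.934 to 1.22 and 0.815 to 1.07.

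Tcf7l2 (ENSMUSG00000024985.18), a TCF factor that binds DNA at Wnt target genes in the intestinal epithelium, lies on chromosome 19 from 55741820 to 55933654. It had 2368, 1693, 1726, 1809 and 1852 in ApcMin/+ mice and 1805, 1654, 1994 and 2049 in ApcMin/+; p16cis/cis mice. A log2 fold change of -0.00 had an interval from -0.26 to 0.25 (limma adjusted p = 0.983), so a change by more than these bounds in either direction lay outside the 95% interval. ApcMin/+ replicate 1 was high in this gene compared with the other mice.

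The promoters of Ctnnb1 and of the GSK3 paralogs are shown because Ctnnb1 carried the largest negative difference and Gsk3a the largest positive one, with Gsk3b as the close relative of Gsk3a. RefSeq promoter entries were found for 4 of the 10 members (Ctnnb1, Gsk3a, Gsk3b and Tcf7l2). The sequences are the 250 bases before the annotated start, 5′ to 3′ on the strand of the gene, from RefSeq on GRCm38.p6. Capitals mark the GC box GGGCGG, the CCAAT box CCAAT, the TCF motif CTTTGAT and the TATA motif TATAAA, each on either strand. None of these motifs contains another.
Ctnnb1, chr9:120933150-120933399, plus strand: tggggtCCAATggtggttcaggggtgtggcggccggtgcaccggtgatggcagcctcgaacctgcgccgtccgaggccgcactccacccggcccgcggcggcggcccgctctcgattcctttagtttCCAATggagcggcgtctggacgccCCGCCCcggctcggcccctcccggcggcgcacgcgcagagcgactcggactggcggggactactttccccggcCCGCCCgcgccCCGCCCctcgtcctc
Gsk3a, chr7:25237852-25238101, minus strand: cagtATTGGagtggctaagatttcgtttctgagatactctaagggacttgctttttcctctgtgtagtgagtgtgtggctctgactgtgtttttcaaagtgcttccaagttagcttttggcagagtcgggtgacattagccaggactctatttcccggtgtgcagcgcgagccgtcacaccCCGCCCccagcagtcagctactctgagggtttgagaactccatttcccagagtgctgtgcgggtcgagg
Gsk3b, chr16:38088751-38089000, plus strand: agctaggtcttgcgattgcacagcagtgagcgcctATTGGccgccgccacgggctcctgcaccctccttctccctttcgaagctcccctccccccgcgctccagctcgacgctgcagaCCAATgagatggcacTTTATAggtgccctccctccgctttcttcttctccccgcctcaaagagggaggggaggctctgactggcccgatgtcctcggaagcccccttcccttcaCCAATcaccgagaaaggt
The window shown for Ctnnb1, which lies inside the span of the gene in GENCODE because that annotation has an earlier start, held 3 GC boxes and 2 CCAAT boxes, the Gsk3a window 1 of each, and the Gsk3b window 3 CCAAT boxes and 1 TATA motif. A GC box was present in 32.7% of the 32851 promoter windows of this length, a CCAAT box in 33.8%, a TATA motif in 12.4% and the TCF motif in 3.21%, and the TCF motif was in none of the 3 windows shown. A second RefSeq entry for Ctnnb1, whose window starts at base 120933328 and partly overlaps the one shown, held 2 GC boxes, 0 CCAAT boxes, 1 TATA motif and 43 CpG dinucleotides. The Ctnnb1 window shown had 35 CpG dinucleotides, more than 97.0% of all windows had, against 9 in Gsk3a and 15 in Gsk3b and a median of 6. These matches are descriptions of the letters in the windows.

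Of the 3 kinase genes, Csnk1a1 passed and Gsk3a and Gsk3b did not. GSK3 phosphorylates β-catenin and occurs as 2 paralogs, GSK3α and GSK3β. Gsk3a (ENSMUSG00000057177.12, chromosome 7 of GRCm38 from 25228258 to 25237851, minus strand) had 1585, 1347, 1491, 1894 and 1329 in ApcMin/+ mice and 1691, 1831, 2494 and 2215 in ApcMin/+; p16cis/cis mice, which overlapped because of ApcMin/+ replicate 4. The means were 1529 ± 230 (SD, n = 5) and 2058 ± 366 (SD, n = 4). Its log2 fold change of 0.42 (standard error 0.14, 95% interval 0.12 to 0.73) missed the threshold (limma adjusted p = 0.0573), and the exact permutation test gave p = 0.0397 (two-sided). It passed by edgeR (adjusted p = 0.0498) and DESeq2 (adjusted p = 0.0324), and without ApcMin/+ replicate 4 (limma adjusted p = 0.0157) or ApcMin/+; p16cis/cis replicate 1 (0.0377). Gsk3b (ENSMUSG00000022812.14, chromosome 16 from 38089001 to 38246084) had 1524 to 2049 and 1522 to 1674, with a log2 fold change of -0.16 (95% interval -0.39 to 0.07, limma adjusted p = 0.314). Within each mouse the ratio of Gsk3a to Gsk3b was 0.840, 0.841, 0.978, 1.04 and 0.649 in ApcMin/+ mice and 1.06, 1.20, 1.49 and 1.44 in ApcMin/+; p16cis/cis mice, so that every mouse of the second genotype was above every mouse of the first. This ratio was chosen after the values were seen and has no test.

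2 measured features of the Gsk3a transcript stand beside this. The longest transcript of Gsk3a holds 59.8% G and C, the highest of the members, and over all genes the genotype difference followed GC content. The 2881 tested genes richest in G and C (over 55.3%) had a median log2 fold change of 0.19, and the 2881 poorest (under 43.9%) had -0.23. After correction for GC content and exonic length the log2 fold change of Gsk3a was 0.18 (limma adjusted p = 0.235). The antisense gene 9130221H12Rik covers 28.3% of the exonic length of Gsk3a, and its own normalized count was 43.2 to 65.6 in ApcMin/+ mice and 73.4 to 110 in ApcMin/+; p16cis/cis mice (log2 fold change 0.74, limma adjusted p = 0.0294). Whether the counting used strand is not given in the sources used here, so reads of the antisense pair cannot be told apart.

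Csnk1a1 (ENSMUSG00000024576.14, chromosome 18 of GRCm38 from 61555274 to 61590061) encodes casein kinase 1α, which adds the first phosphate to β-catenin ahead of GSK3. It had 7290, 7479, 7568, 7753 and 7603 in ApcMin/+ mice and 5597, 5350, 6212 and 5618 in ApcMin/+; p16cis/cis mice. The ApcMin/+ mice lay close together and all above the other genotype, with means of 7538 ± 170 (SD, n = 5) and 5694 ± 366 (SD, n = 4). The log2 fold change was -0.41 (standard error 0.09, 95% interval -0.60 to -0.21, limma adjusted p = 0.0127), a change of -24.6%, and the exact permutation p was 0.00794 (two-sided). The call was lost after correction for GC content and exonic length, where the log2 fold change was -0.21 (limma adjusted p = 0.216), and in females alone, where it was -0.38 (limma adjusted p = 0.137). With the mitochondrial share as a covariate it was -0.30 (limma adjusted p = 0.849). The longest transcript of Csnk1a1 (4083 bp) is poor in G and C (43.3%, against a median of 49.7% over all genes tested). Its exonic length, over all annotated transcripts together, is 10502 bp.

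The scaffold genes were all lower in the mean, and none passed. By sex, Axin1 was lower in both, with means of 1087 and 912 in females and 1232 against 1029 in males. Apc (2024 and 1503) and Amer1 (215 and 149) were lower in females only. The only male of the second genotype had 1864 for Apc and 231 for Amer1, against means of 1691 and 168 in the males of the first. Apc (ENSMUSG00000005871.14, chromosome 18 from 34220924 to 34322552), the carrier of the mutation in both genotypes, had 1614, 1710, 1472, 1890 and 2435 in ApcMin/+ mice and 1864, 1517, 1724 and 1269 in ApcMin/+; p16cis/cis mice. The genotypes overlapped over most of their ranges, and the log2 fold change was -0.19 (standard error 0.15, 95% interval -0.52 to 0.15, limma adjusted p = 0.434). The interval in percent ran from -30.5% to 10.9%. Counts per gene mix the mutant and the normal allele, and the pseudogene Apc-ps1 had at most 7.98 in any mouse.

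Axin1 (ENSMUSG00000024182.16, chromosome 17 from 26138688 to 26195811), the scaffold that gathers the kinases, had 1063, 1180, 1323, 1194 and 1110 in ApcMin/+ mice and 1029, 903, 998 and 835 in ApcMin/+; p16cis/cis mice. No mouse of the second genotype reached the lowest of the first, although 1029 and 1063 were near. The means were 1174 ± 98.6 (SD, n = 5) and 941 ± 88.9 (SD, n = 4), which gave a log2 fold change of -0.32 (standard error 0.10, 95% interval -0.54 to -0.10). It just missed the threshold by limma (adjusted p = 0.0520) and passed it by edgeR (0.0473) and DESeq2 (0.0328). Unlike Csnk1a1, Axin1 is rich in G and C (56.6%), and after correction for GC content and length its log2 fold change was -0.47 (limma adjusted p = 0.0156). With the mitochondrial share as a covariate it was 0.02 (limma adjusted p = 0.990). Amer1 (ENSMUSG00000050332.7, X chromosome from 95420318 to 95444872), a membrane-bound scaffold, was the least abundant member, at 135 to 235 and 108 to 231, with a log2 fold change of -0.18 whose interval ran from -0.69 to 0.33 (limma adjusted p = 0.635).

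The values of Btrc and Tnks, which act on protein turnover, overlapped between the genotypes. Btrc (ENSMUSG00000025217.15, chromosome 19 from 45363734 to 45530013), whose product recognizes phosphorylated β-catenin, had 311 to 470 in ApcMin/+ mice and 379 to 490 in ApcMin/+; p16cis/cis mice, and a log2 fold change of 0.08 had an interval from -0.23 to 0.39 (limma adjusted p = 0.745). Tnks (ENSMUSG00000031529.5, chromosome 8 from 34826460 to 34965690) encodes tankyrase 1, which marks Axin for degradation, and had 671 to 1017 and 525 to 836. Its log2 fold change was -0.26, with an interval from -0.60 to 0.08 (limma adjusted p = 0.277). Females averaged 896 and 622 for Tnks, and the only male of the second genotype had 836 against a mean of 739 in the males of the first. The intervals of Tnks and of Btrc both overlapped that of Axin1 (-0.54 to -0.10), and differences between these genes were not tested.

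**Figure D3:**
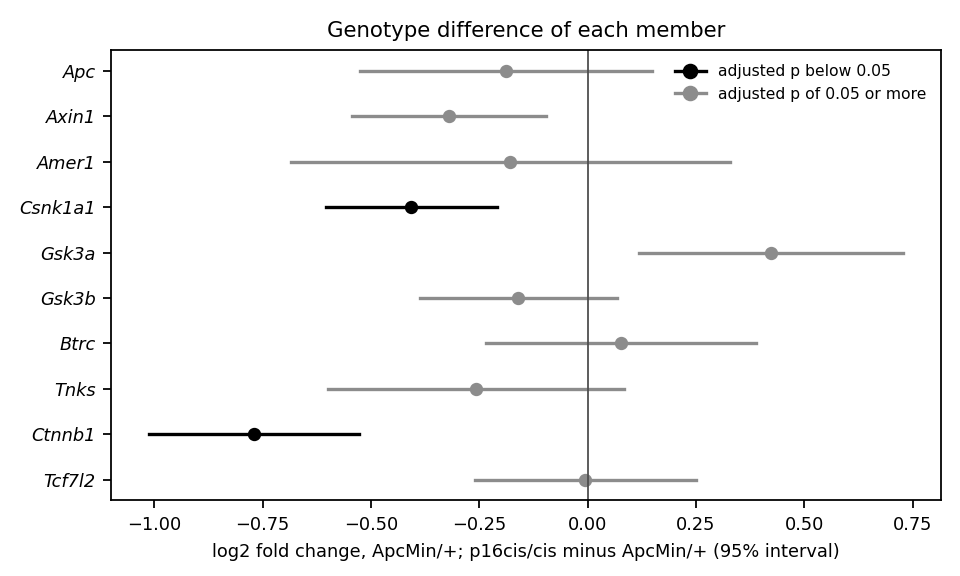
Log2 fold change of each member (x axis, ApcMin/+; p16cis/cis minus ApcMin/+; points) with its 95% interval (lines), black where the limma adjusted p was under 0.05 and gray elsewhere. Only the intervals of Ctnnb1, Csnk1a1, Axin1 and Gsk3a left out 0, the last on the positive side.

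Per length, β-catenin RNA was the most abundant of the set. In ApcMin/+ mice, as normalized counts per kb of exon, Ctnnb1 had 1994 ± 139 (SD, n = 5), Csnk1a1 718 ± 16.2, Gsk3a 527 ± 79.1, Axin1 307 ± 25.8, Tcf7l2 215 ± 31.3, Gsk3b 181 ± 21.7, Apc 113 ± 23.2, Tnks 53.8 ± 8.68, Btrc 24.9 ± 3.84 and Amer1 22.0 ± 4.33. In this order Tcf7l2 and Gsk3b overlapped over the mice, as did Btrc and Amer1, and the other neighbors did not. In ApcMin/+; p16cis/cis mice Ctnnb1 was still first, at 1173 ± 137 (SD, n = 4), and Gsk3a, at a mean of 710 (583 to 860), stood above Csnk1a1, at 542 (509 to 592), with overlapping ranges. The order rests on which length is used. Per kb of the longest transcript, Csnk1a1 had 1846 ± 41.7 in ApcMin/+ mice, and Tcf7l2 (509 ± 74.0) came before Axin1 (311 ± 26.1). On this scale Csnk1a1 (1395 ± 89.6) was above Gsk3a (911 ± 162) in ApcMin/+; p16cis/cis mice, without overlap, the reverse of the order per kb of exon. Ctnnb1 had the highest mean in these mice on this scale too (1681 ± 196), but its range overlapped that of Csnk1a1.

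**Figure D4:**
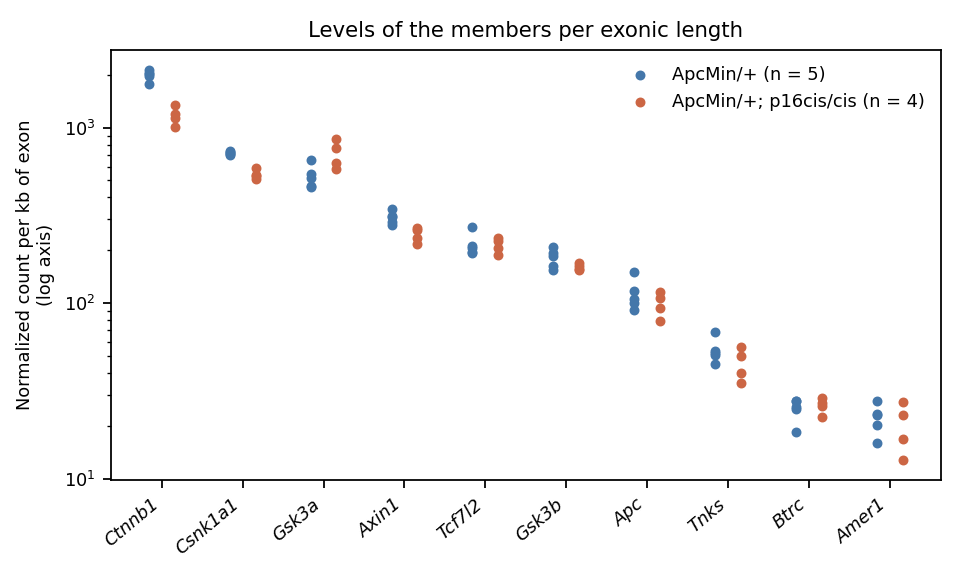
Normalized count per kb of exon (y axis, log scale) of the 10 members in order of their mean in ApcMin/+ mice, with 1 point per mouse for 5 ApcMin/+ (blue) and 4 ApcMin/+; p16cis/cis mice (orange). Ctnnb1 was highest in both genotypes, and Btrc and Amer1 overlapped at the lower end.

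Within the genotypes, Apc varied from mouse to mouse most closely with Tnks and Gsk3b. After each genotype's mean was taken away, Pearson's r on the log2 scale over the 9 mice was 0.82 for Apc with Tnks and 0.72 for Apc with Gsk3b. The highest of the 45 pairs was Amer1 with Ctnnb1, at 0.95, and the lowest was Gsk3a with Ctnnb1, at -0.61. Outside the members, the genes whose log2 values were most like those of Apc over all 9 mice were Exph5 (r = 0.97), Cyp20a1 (0.97), Lrch3 (0.96), Nr2c2 (0.95) and Mynn (0.95). All points of these correlations share libraries and their scaling, and they are given as descriptions.

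Other genes of the pathway were counted in 8 lists with 116 genes tested, of which 13 passed in the lower and 8 in the higher direction by limma. Over all genes tested 8.75% and 8.14% did, and these shares are the background for each of the lists. By edgeR the shares were 9.05% and 8.08%, and by DESeq2 10.1% and 8.89%. At an unadjusted p under 0.05 they were 17.0% and 16.2%. The list of other destruction complex genes is broad and also holds kinases and ubiquitin ligases outside the core complex. Of its 28 genes tested, 4 passed in the lower direction and 2 in the higher, with a median log2 fold change of -0.10. At an unadjusted p under 0.05 the counts were 10 and 4. Tnks2, the second tankyrase, went from 2036 ± 331 (SD, n = 5) to 1390 ± 251 (SD, n = 4) (log2 fold change -0.55, limma adjusted p = 0.0261). Its values overlapped, at 1533 to 2443 in ApcMin/+ mice and 1181 to 1754 in ApcMin/+; p16cis/cis mice. Ppp2r5e, a regulatory subunit of the phosphatase PP2A, fell by 0.44 on the log2 scale (limma adjusted p = 0.0149), and Skp1a, of the SCF ubiquitin ligase, fell by 0.41 (0.0384), a call that was lost after the GC content and length correction (limma adjusted p = 0.0768). The fourth was Fbxw11, the paralog of Btrc, named after its values were seen, with 1386 to 1612 in ApcMin/+ mice and 1010 to 1227 in ApcMin/+; p16cis/cis mice and a log2 fold change of -0.40 (limma adjusted p = 0.0156). The difference of Fbxw11 from Btrc and of Tnks2 from Tnks was not tested. On the higher side stood Csnk1g2, a casein kinase 1γ (log2 fold change 0.49, limma adjusted p = 0.0105), and Csnk2b, the regulatory subunit of casein kinase 2 (0.51, limma adjusted p = 0.0250).

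Upstream of the complex, 3 of 22 receptors and membrane regulators passed in the lower direction and 0 in the higher by limma and edgeR (1 higher by DESeq2, and 2 at an unadjusted p under 0.05), with a median log2 fold change of -0.05. Fzd5, a Wnt receptor of the intestinal epithelium, went from 2525 ± 85.3 (SD, n = 5) down to 1531 ± 214 (SD, n = 4), which was a log2 fold change of -0.73 (standard error 0.11, limma adjusted p = 0.00260). Lgr4, a receptor for R-spondins, went from 3501 ± 144 to 2285 ± 422 (log2 fold change -0.63, limma adjusted p = 0.00629). Fzd3, at 151 ± 32.5 and 60.8 ± 17.7, had a log2 fold change of -1.32 (limma adjusted p = 0.00656). In these 3 genes no mouse of one genotype reached the other. Of 25 genes of ligands and their secretion 6 could be tested, and 2 passed in the lower direction and 0 in the higher, at an unadjusted p too. They were Wnt5a, a ligand of mostly β-catenin-independent signaling, at 62.5 to 118 in ApcMin/+ mice and 7.83 to 35.4 in ApcMin/+; p16cis/cis mice (log2 fold change -2.38, limma adjusted p = 0.00571), and Wls, which carries Wnt proteins to the cell surface (log2 fold change -0.40, limma adjusted p = 0.0195). After the GC content and length correction the log2 fold change of Wls was -0.17 (limma adjusted p = 0.261). Stromal cells are a known source of Wnt5a. Of the 4 fibroblast markers that could be tested, 1 (Col3a1) passed in the same direction, where 8.75% of all genes did, and Lum was at 0 in all 4 ApcMin/+; p16cis/cis mice. The part of these cells in the value of Wnt5a was not tested. Of 11 secreted antagonists 3 could be tested and 0 passed by limma, edgeR or DESeq2 (1 lower and 1 higher at an unadjusted p under 0.05), with Wif1 at 47.0 ± 28.7 and 20.7 ± 9.27 and Notum at 16.1 ± 13.0 and 9.46 ± 6.99.

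Downstream of β-catenin, 0 genes passed in the lower direction by limma, edgeR or DESeq2, and at an unadjusted p under 0.05 there were 2 among TCF factors and cofactors and 0 among target genes. Of 25 TCF factors and cofactors, 2 passed in the higher direction, with a median log2 fold change of -0.01. Tcf7l1, a TCF factor known mainly as a repressor, went from 1751 ± 501 (SD, n = 5) up to 3239 ± 556 (SD, n = 4), a log2 fold change of 0.92 (limma adjusted p = 0.00919). Pygo2, a cofactor of β-catenin, had a log2 fold change of 0.38 (limma adjusted p = 0.0288). Of 21 Wnt target genes, 4 passed in the higher direction, with a median of 0.10. Ephb3, an ephrin receptor of the crypt base, had a log2 fold change of 0.57 (limma adjusted p = 0.0320), Rgmb 0.48 (0.0259) and the proliferation regulator Myc 0.47 (0.0259). The fourth, named after its values were seen, was Ephb2 (0.35, limma adjusted p = 0.0432). Axin2, the target most often used as a readout of the pathway and also named after its values were seen, had 629 to 1438 and 1332 to 1586, with a log2 fold change of 0.57 that missed the threshold (limma adjusted p = 0.0626). After correction for GC content and length 4 of the 8 genes of all lists that had passed in the higher direction still did, and Myc (limma adjusted p = 0.104), Ephb2 (0.150), Ephb3 (0.124) and Pygo2 (0.224) did not. With sex as a covariate 2 of the 8 did, and 8 of the 13 genes that had passed in the lower direction. Of 12 cytoskeletal partners of Apc, 0 passed in the higher direction, by limma, edgeR or DESeq2 and at an unadjusted p alike, and 2 in the lower, Mapre3 (log2 fold change -0.71, limma adjusted p = 0.0443), which binds the ends of microtubules, and Kifap3 (-0.54, limma adjusted p = 0.0158), an adaptor of kinesin. The call of Kifap3 was lost after the GC content and length correction (limma adjusted p = 0.0581). With sex as a covariate the lower calls of Mapre3 (limma adjusted p = 0.0785), Tnks2 (0.0575), Skp1a (0.0560), Wls (0.0530) and Cdh17 (0.0865) were lost.

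**Figure D5:**
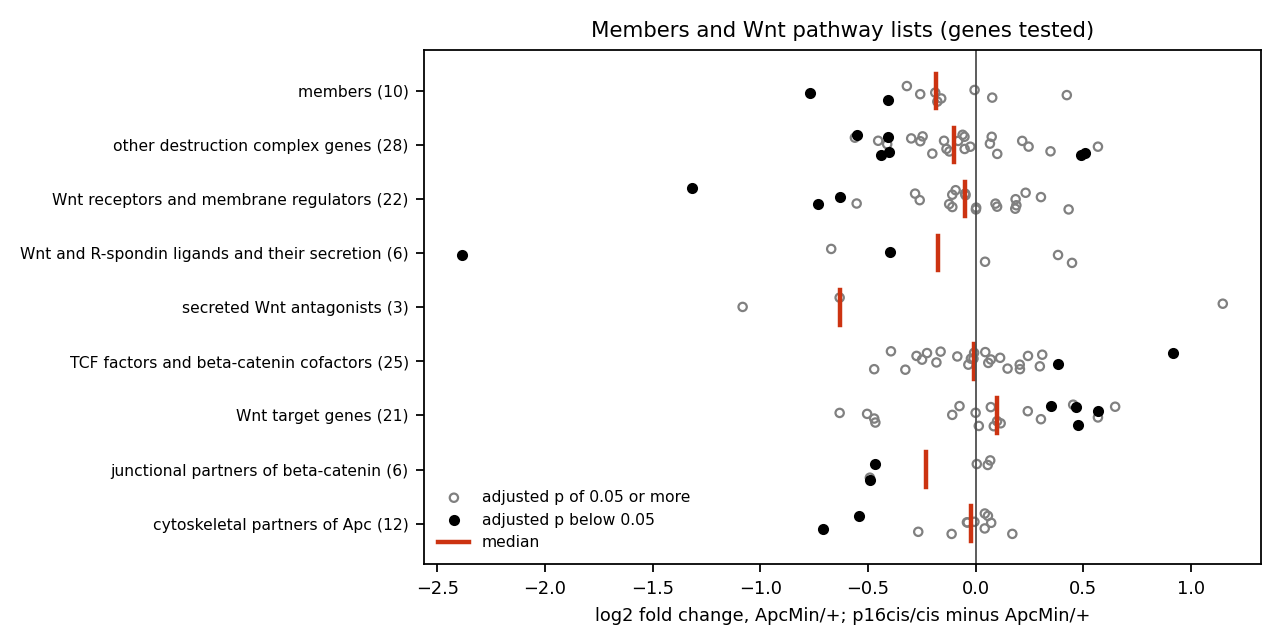
Log2 fold change (x axis, ApcMin/+; p16cis/cis minus ApcMin/+) of the 10 members and of the genes tested in each of 8 pathway lists, with filled points where the limma adjusted p was under 0.05, open points elsewhere and a red line at each median. Filled points of the members, receptors, ligands, junctional and cytoskeletal partners lay below 0, and those of TCF factors, cofactors and target genes above 0. Those of the list of other destruction complex genes, which also holds genes outside the core complex, lay on both sides (4 below and 2 above). Over all genes tested 8.75% passed in the lower direction and 8.14% in the higher.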

How the data were processed

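The authors prepared RNA from colonic crypts, sequenced it on the BGISEQ-500 platform, aligned reads with BOWTIE2, computed gene levels with RSEM and compared genotypes with DESeq2. The versions, the genome build and the strand setting are not given in the sources used here. The deposited table holds signal values, which are read counts scaled by 1 size factor per mouse. Dividing by the value of 1 read gave whole reads for 100% of the positive values (to within 0.01 reads), 13523500 to 17885918 reads on genes per mouse. The plan named limma for normalized values and edgeR for raw counts, and limma was the main test because the values are normalized. Genotypes were compared with limma 3.58.1 (R 4.3.3, trended variances) on log2(normalized count + 1), a scale that understates the change of low genes, over 14410 genes with at least 10 in at least 4 mice, with Benjamini-Hochberg adjustment over all of them and a threshold of 0.05. Single genes were also compared by exact permutation over all splits of the 9 mice. Alternatives were edgeR 4.0.16 and DESeq2 1.42.0 on recovered reads, other scalings, filters and a pseudocount of 0.1, covariates, females only, each mouse left out, and a loess correction (span 0.5) for GC content and exonic length. Of the identifiers 54079 matched GENCODE M21 (GRCm38), the source of coordinates, lengths and GC content (of the longest transcript of a gene), 52480 with the same version. Of the members, Apc and Tcf7l2 had another version there. No 2 libraries were alike, with at least 20964 genes at different values. The labels do not give litters. The members and the pathway and marker lists were chosen with earlier results of these data known, so no set test was made. Named were all members, up to 3 genes with the largest change per direction among those past the threshold in each list, the 2 most abundant genes of a list where none passed, and the 5 genes most like Apc, with exceptions marked in the text.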

Additional observations from a re-analysis of the deposited data

Results flagged for a closer look

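Of 20 groups (10 members in 2 genotypes), 1 held a mouse that stood apart, and chance gives about 1 in 20. It was ApcMin/+ replicate 1, whose Tcf7l2 normalized count was 2368, against 1852 in the next and 1693 in the lowest of the 5 mice. The gap made up 0.764 of the range.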

How the results depend on the processing

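Over 21 alternatives, Ctnnb1 kept its direction in all and its call in 20, and Csnk1a1 kept its direction in all and its call in 18. Axin1 passed in 6 of the 21 and Gsk3a in 5. Apc, Amer1, Gsk3b, Btrc, Tnks and Tcf7l2 passed in 0, with limma, edgeR or DESeq2, and the sign turned in at least 1 alternative for Axin1, Amer1, Btrc and Tcf7l2, none of which had passed. Of all genes, 2434 passed, against 1437 with sex as a covariate, 898 in females only, 0 with the mitochondrial share as a covariate (798 at an unadjusted p under 0.05) and 1183 to 3488 with 1 mouse left out, the lowest without ApcMin/+; p16cis/cis replicate 4, then 1257 without its replicate 2, 1287 without ApcMin/+ replicate 3 and 1353 without ApcMin/+ replicate 2. The number of members that passed in the lower direction was 2, against 0 with the mitochondrial share and 1 in females only, and 2 to 3 with 1 mouse left out (3, with Axin1, without ApcMin/+; p16cis/cis replicate 1). The number in the higher direction was 0, against 1 (Gsk3a) with edgeR, DESeq2 and scaling to nuclear-encoded reads, and 0 to 1 with 1 mouse left out (1 without ApcMin/+ replicate 4 or ApcMin/+; p16cis/cis replicate 1). The median log2 fold change of the members was -0.18, against -0.35 in females only, -0.056 after the GC content and length correction, and -0.31 (without ApcMin/+; p16cis/cis replicate 1) to -0.10 (without ApcMin/+ replicate 5) with 1 mouse left out. Of the 13 and 8 pathway genes that passed in the lower and higher direction, 9 and 4 still did after that correction, 4 and 0 in females only, 0 and 0 with the mitochondrial share, and 7 and 3 without ApcMin/+; p16cis/cis replicate 4. Without a filter on low values and with DESeq2, which both gave a fold change for 29946 genes, the median over all genes was -0.12. The replicate block gave 2074 genes, with limma adjusted p of 0.0101 for Ctnnb1 and 0.0384 for Csnk1a1, and it uses no information from ApcMin/+ replicate 5, which has no partner. Same-numbered mice did not deviate together (correlations -0.18, 0.07, 0.05 and 0.14). The fewest reads on a member in any mouse were 69, for Amer1. Shares and reads cover counting error only.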
